A study of Mus musculus with 4 samples.

Results

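Genes that osteoclasts use to form and to dissolve bone were followed through every cell population of mouse sarcomas taken from hosts given vehicle or digoxin, a cardiac glycoside that blocks the sodium pump. The 10 genes were Acp5, Ctsk, Mmp9, Dcstamp, Ocstamp, Atp6v0d2, Nfatc1, Oscar, Tnfrsf11a and Calcr. They were chosen by symbol as known osteoclast genes, and all 10 were present among the 16349 genes measured in non-malignant cells and the 17992 measured in malignant cells. Tumors were allografts dissected from the hind limb, of strain 129/SvJae with conditional Trp53 alleles in all 4 samples, and each group held 2 mice. Digoxin was given into the peritoneum at 2 mg/kg every 24 h and tumors were taken after 4 doses. The vehicle was PBS, whereas digoxin was first dissolved in DMSO and then diluted in PBS, and the vehicle label names no DMSO. The labels do not give the age of the hosts. Tumors were digested for 45 min at 37 °C and passed through a 40 µm strainer, and the number of nuclei per captured cell was not measured.

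Osteoclasts are bone-resorbing giant cells that form when monocyte-lineage precursors fuse. The cytokine RANKL, encoded by Tnfsf11, acts on its receptor RANK, encoded by Tnfrsf11a, and the signal, with co-stimulation through immunoreceptor adaptors, raises the transcription factor NFATc1. NFATc1 in turn drives genes for cell fusion, for the proton pump that acidifies the space under the cell, and for the enzymes that digest bone matrix.

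In the deposited annotation 263 of the 12648 non-malignant cells were named Osteoclasts, with 28 and 152 cells in vehicle mice 1 and 2 and 47 and 36 in digoxin mice 1 and 2. The share of non-malignant cells was 0.923% in vehicle mouse 1, 5.04% in vehicle mouse 2, 1.41% in digoxin mouse 1 and 1.11% in digoxin mouse 2. Vehicle mouse 2 alone stood high, and the digoxin mice lay between the vehicle mice (exact permutation test over mice, two-sided p = 1, where the smallest p this design allows is 0.333). Exact binomial 95% intervals, which cover counting error only, were 0.614% to 1.33% and 4.29% to 5.89% for the vehicle mice. The digoxin minus vehicle difference was -1.73 percentage points, and without vehicle mouse 2 it was 0.332 percentage points. That library also stood apart from the others: Xist was at 0 in its Osteoclasts and at 664 to 730 mean CPM (each cell's UMIs, the tags that mark single RNA molecules, scaled to a total of 1000000 and averaged over a mouse's cells) in those of the other 3 mice. The Y-linked gene Ddx3y was at 54.2 mean CPM in the same cells of vehicle mouse 2 and at 1.17 to 3.67 in the others. In Macrophage cells Xist was at 0.161 in vehicle mouse 2 and at 635 to 753 in the others, and Ddx3y at 87.7 against 1.74 to 2.28. By these genes the host of vehicle mouse 2 differed in sex from the other 3 hosts. Sex was thus not balanced between the groups, and its part in the differences was not tested. The deposited cell table assigns the library of vehicle mouse 2 to vehicle replicate 2, whereas its cell names carry the prefix veh3. The 4 libraries shared 14 to 25 cell barcodes per pair, and 1 of the 263 Osteoclasts carried a barcode found in another library.

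The cells named Osteoclasts had median depths of 22907 to 28744 unique molecular identifiers (UMIs) per mouse. All 10 genes were detected in them, and the summed markers of T, NK, B, endothelial, neutrophil and dendritic cells were at most 13.1 mean CPM. The osteoblast genes present in the table, Bglap, Alpl and Dmp1, were at 0 in all 4 mice. The summed level of the 5 fibroblast markers was 83.9 to 119 mean CPM, and that of the 4 monocyte markers 2.62 to 102. The 3 plasmacytoid dendritic markers summed to 130 to 223, with Siglech at 0 in 3 of the 4 mice. Macrophage markers were present at a summed 1721 to 2266 mean CPM, and none of the 7 was at 0. The same sum was higher in the macrophage Sub-clusters, at 5869 to 8739 in M1, 9191 to 10799 in Highly proliferative M2 and 15150 to 18856 in M2. The RANKL gene Tnfsf11 was at 0 in Osteoclasts of all 4 mice. It was found instead in T cells at 14.0 ± 9.12 mean CPM and in Fibroblast cells at 13.1 ± 10.0 (SD over 4 mice for both). Csf1, the other cytokine that osteoclast precursors need, was at 135 ± 27.4 mean CPM in Fibroblast cells, 112 ± 96.8 in Neutrophil cells and 106 ± 12.3 in malignant cells (SD over 4 mice for each).

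All 10 genes had their highest mean in Osteoclasts among the 14 populations, and for all 10 the 4 Osteoclasts values lay above every mouse of the population next in order. As the annotation was made from these cells, this is a description and was not tested. For reference, 7.94% of the 9849 genes that reached 20 mean CPM in some population were highest in Osteoclasts. Oscar and Calcr, at 12.6 and 19.4 mean CPM in Osteoclasts, did not reach that level and are not among the 9849. A like share of all genes was not computed for ranges that did not overlap. Libraries of this kind count molecules at the 3′ end and were not divided by gene length, so levels are compared between populations and not between genes.

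**Figure D1:**
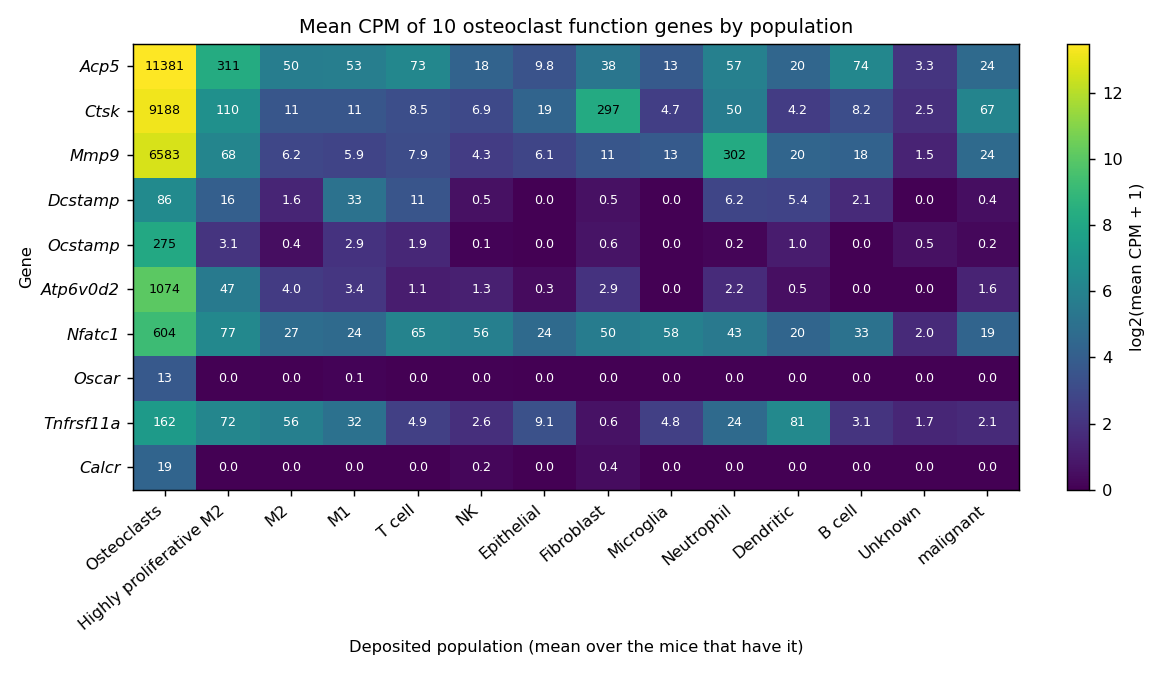
Mean CPM of each gene (rows) in each deposited population (columns), averaged over the mice that have it; the colour is log2(mean CPM + 1). The Osteoclasts column is the highest for all 10 genes, and Ctsk in Fibroblast cells (297) and Mmp9 in Neutrophil cells (302) are the next highest levels of those genes.

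The receptors came first in the order of action. Tnfrsf11a, the RANK gene, was at 148 and 168 mean CPM in Osteoclasts of vehicle mice 1 and 2 and at 149 and 185 in those of digoxin mice 1 and 2. It was the member least restricted to Osteoclasts, which held 8.25% of all its UMIs in the data, whereas Macrophage cells held 69.3%. Per mouse, the Osteoclasts share was 17.7% in vehicle mouse 2 and 3.89% to 6.04% in the others. Next in order were Dendritic cells at 81.2 ± 35.6 mean CPM, Highly proliferative M2 cells at 72.1 ± 4.52 and M2 cells at 56.1 ± 5.77 (SD over 4 mice for each). The ranges of Dendritic and Highly proliferative M2 cells overlapped. The Dendritic value rested on 63 cells, with 48.2 to 132 mean CPM per mouse. Oscar, an immunoreceptor that co-stimulates NFATc1, was at 6.59, 24.4, 12.9 and 6.34 mean CPM in Osteoclasts of vehicle mice 1 and 2 and digoxin mice 1 and 2. Only 20.9% of Osteoclasts had an Oscar UMI, and no other population had a mean above 0.0872 CPM. Calcr, the calcitonin receptor through which resorption is halted, was at 16.9, 32.3, 10.6 and 17.8 mean CPM in the same order of mice. Osteoclasts held 86.3% of all its UMIs, and 1 of 10363 Macrophage cells had one.

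Nfatc1, the transcription factor of the program, was at 544, 645, 615 and 613 mean CPM in Osteoclasts of vehicle mice 1 and 2 and digoxin mice 1 and 2, so the digoxin mice lay between the vehicle mice. Its level was lower but broad elsewhere. The next population was Highly proliferative M2 at 76.6 ± 12.8 mean CPM, followed by T cells at 64.9 ± 8.43 (SD over 4 mice for both), with overlapping ranges. Malignant cells, which were many and deep, held 62.8% of all Nfatc1 UMIs at only 19.1 ± 1.36 mean CPM. Nfatc1 is overlapped by an annotated antisense gene, and whether the counting used strand is not given in the sources used here.

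The fusion genes Dcstamp and Ocstamp, which encode membrane proteins needed for precursors to merge, differed in where they were found. Ocstamp was at 233, 291, 251 and 324 mean CPM in Osteoclasts of vehicle mice 1 and 2 and digoxin mice 1 and 2, and no other population exceeded 3.10 ± 0.782 (Highly proliferative M2, SD over 4 mice). Dcstamp was at 70.5, 98.6, 69.5 and 105 mean CPM in the same mice. Its next population was M1 macrophages at 32.6 ± 17.9 mean CPM (SD over 4 mice), and M2 cells were at 1.59. Macrophage cells as a whole held 67.0% of Dcstamp UMIs and 12.4% of Ocstamp UMIs. Per mouse these shares were 53.0% to 79.4% and 4.52% to 27.3%, both lowest in vehicle mouse 2.

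Atp6v0d2 encodes the osteoclast form of a subunit of the vacuolar proton pump and also takes part in fusion. It was at 1055, 1054, 1020 and 1167 mean CPM in Osteoclasts of vehicle mice 1 and 2 and digoxin mice 1 and 2, the narrowest spread of the 10 genes relative to its mean. Highly proliferative M2 cells followed at 46.8 ± 7.46 mean CPM (SD over 4 mice), and the next population, M2, was at 4.01 ± 1.36.

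The bone-digesting enzymes act last. Acp5 encodes the tartrate-resistant acid phosphatase that serves as the histological stain for osteoclasts. It was at 11079, 15970, 9538 and 8937 mean CPM in Osteoclasts of vehicle mice 1 and 2 and digoxin mice 1 and 2. Ctsk encodes cathepsin K, the protease that cleaves bone collagen, and was at 9325, 11208, 7144 and 9075 mean CPM in the same order. Mmp9, a gelatinase, was at 5450, 9729, 5033 and 6118. For all 3 genes vehicle mouse 2 was the highest, and for Acp5 and Ctsk both digoxin mice were below both vehicle mice. The 10 genes together made up 2.79% and 3.92% of the UMIs of Osteoclasts in vehicle mice 1 and 2 and 2.38% and 2.65% in digoxin mice 1 and 2, against 0.0209% to 0.0248% in Macrophage cells.

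Outside Osteoclasts these enzymes separated. Acp5 was next in Highly proliferative M2 at 311 ± 56.1 mean CPM, then in B cells at 73.7 ± 15.1 and T cells at 73.2 ± 9.84, whose ranges overlapped (SD over 4 mice for each). An Acp5 UMI was present in 40.2% of T cells and in 15.5% of NK cells, with median depths of 7244 to 8232 and 10992 to 12449 UMIs per mouse, and in 25.2% and 6.95% after thinning to 5000 UMIs. RNA free in the droplets can add UMIs to cells that do not express a gene, and its level was not estimated. The NK share is given for comparison only. NK cells were not the lowest, with Acp5 at 18.4 mean CPM against 12.9 in Microglia and 9.82 in Epithelial cells. Acp5 was highest in vehicle mouse 2, the mouse with the most Osteoclasts, in T cells (86.6 mean CPM against 63.3 to 73.2) and NK cells (24.9 against 14.1 to 18.0). The same mouse was highest in M2 (68.8 against 34.8 to 59.4), M1 (69.7 against 40.8 to 52.6) and Highly proliferative M2 (393 against 270 to 300). It was also highest in malignant cells (36.2 against 18.0 to 22.5), but not in Fibroblast, Epithelial or Microglia cells. The part of free RNA in these levels was not tested. Ctsk was next in Fibroblast cells at 297 ± 63.4 mean CPM (SD over 4 mice), where 97.0% of 203 cells had a UMI, against 5.70% of T cells. Malignant cells had Ctsk at 67.4 ± 13.8 mean CPM (SD over 4 mice) and held 42.0% of its UMIs. Mmp9 was next in Neutrophil cells at 351, 0, 679 and 181 mean CPM in vehicle mice 1 and 2 and digoxin mice 1 and 2, from 11, 5, 34 and 23 cells. The ratio of Acp5 to Ctsk UMIs was 1.05 to 1.40 per mouse in Osteoclasts, 2.80 to 3.83 in Macrophage cells, 0.357 to 0.549 in malignant cells and 0.101 to 0.248 in Fibroblast cells. It was 1.88 to 7.25 in NK cells, which overlapped Macrophage cells, and 6.58 to 19.6 in T cells, where Ctsk had 5 to 12 UMIs per mouse. Without the few Macrophage cells that had both genes above 1000 CPM, described below, the Macrophage ratio was 5.87 to 6.83. Acp5 is overlapped on the opposite strand by the transcript 6530413G14Rik, so the same limit on strand applies to it.

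Within single cells the program was nearly complete. A median of 8 of the 10 genes had a UMI per Osteoclasts cell in all 4 mice, with a lowest of 4 and a highest of 10. Cells with 6 or more made up 100%, 94.1%, 91.5% and 94.4% of Osteoclasts in vehicle mice 1 and 2 and digoxin mice 1 and 2, and 0.570% to 0.827% of Macrophage cells. After each cell was thinned to 5000 UMIs, 68.1% to 86.1% of Osteoclasts and 0.123% to 0.257% of Macrophage cells per mouse kept 6 or more. Of the Macrophage Sub-clusters, Highly proliferative M2 had the largest share with 6 or more, 5.07% to 6.01% of cells per mouse before thinning and 1.29% to 1.83% after it. Before thinning M2 cells were at 0% to 0.264% and M1 cells at 0% to 0.0913%. Median depths of Highly proliferative M2 cells were 25066 to 28898 UMIs per mouse. NK cells, with median depths of 10992 to 12449 UMIs per mouse, had 6 or more in 0% of cells in every mouse. Before thinning the share was 0.201% to 0.622% in malignant cells, which were deeper. It was 2.56% in Fibroblast cells of vehicle mouse 1 and 2.94% in Neutrophil cells of digoxin mouse 1, and 0% in the other mice of both.

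**Figure D2:**
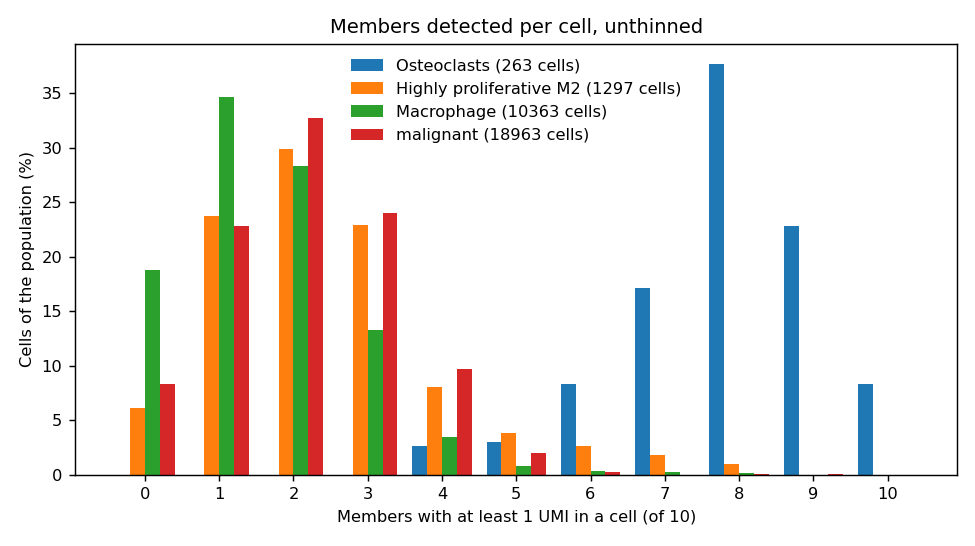
Share of cells (vertical axis, %) by the number of the 10 genes with at least 1 UMI in the cell (horizontal axis), all mice together and without thinning. Osteoclasts peak at 8 genes, whereas Macrophage cells peak at 1, and Highly proliferative M2 and malignant cells at 2.

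Levels of the enzymes were correlated over single cells. Pearson's r was taken over the 152 Osteoclasts of vehicle mouse 2, which share a library, between per-cell levels as log2(CPM + 1). It was 0.74 for Ctsk and Mmp9, 0.67 for Acp5 and Ctsk, and 0.64 for Acp5 and Mmp9. Other members varied with them: Atp6v0d2 was at 0.62 with Ctsk, 0.48 with Mmp9 and 0.37 with Acp5. Ocstamp was at 0.55 to 0.56 with each of these enzymes. The lowest of the 45 pairs was Ctsk and Tnfrsf11a at 0.05, and Nfatc1 and Ctsk were at 0.13. These values are descriptions, and the part of low counts in r was not tested. The 152 cells include 6 that did not have both Acp5 and Ctsk above 1000 CPM. Those 6 had Ctsk at 14.7 and Mmp9 at 4.98 mean CPM, against 11668 and 10128 in the other 146. Their part in r was not tested either, so r does not show whether the levels vary together among the 146. Tnfrsf11a had 621 UMIs in these cells. Dcstamp, Oscar and Calcr had 365, 95 and 107 and were at 0.37, 0.22 and 0.19 with Ctsk. Acp5 was above 1000 CPM together with Ctsk in 243 of the 263 Osteoclasts. The other 20 are defined by missing that level, and had Acp5 at 3914 mean CPM and Ctsk at 240. Among genes the split did not use, Mmp9 was at 209 and Dcstamp at 2.17, with Atp6v0d2 at 544, Nfatc1 at 420 and Tnfrsf11a at 131. The 20 cells came from all 4 mice, with 4 and 6 in vehicle mice 1 and 2 and 5 in each digoxin mouse. The lower of Acp5 and Ctsk lay between 500 and 1000 CPM in 6 Osteoclasts and between 1000 and 2000 CPM in 12.

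The promoters of the enzyme genes Acp5 and Ctsk are shown because their per-cell levels were correlated over the 152 Osteoclasts of vehicle mouse 2, with the limit given above. The sequences are from RefSeq on GRCm38.p6 and run from 250 bases before to 50 after a start site. The windows used, from which 1 chromosome was left out, held 8 start sites of 5 of the 10 genes (Acp5, Ctsk, Oscar, Tnfrsf11a and Calcr). Acp5 lies at chr9:22126727-22135711 on the minus strand and Ctsk at chr3:95499256-95509362 on the plus strand (GENCODE M21, GRCm38), both protein-coding. Libraries of 3′ ends do not show which of the 3 Acp5 start sites was used, and site 3 was chosen for printing after its matches were seen, because it alone of the 8 windows holds TCATGTG. Capitals mark GGAAA, the core bound by NFAT factors, on either strand (TTTCC when read on the other), and TCATGTG, an E-box bound by MITF, likewise (CACATGA).
Acp5, start site 3, chr9:22130549-22130848, minus strand: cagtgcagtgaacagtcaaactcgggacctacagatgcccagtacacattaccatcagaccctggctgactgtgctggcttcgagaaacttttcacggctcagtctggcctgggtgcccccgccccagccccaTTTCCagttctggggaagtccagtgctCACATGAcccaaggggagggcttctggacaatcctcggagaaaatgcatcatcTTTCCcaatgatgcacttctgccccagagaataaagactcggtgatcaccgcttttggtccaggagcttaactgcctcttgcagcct
Ctsk, chr3:95498960-95499259, plus strand: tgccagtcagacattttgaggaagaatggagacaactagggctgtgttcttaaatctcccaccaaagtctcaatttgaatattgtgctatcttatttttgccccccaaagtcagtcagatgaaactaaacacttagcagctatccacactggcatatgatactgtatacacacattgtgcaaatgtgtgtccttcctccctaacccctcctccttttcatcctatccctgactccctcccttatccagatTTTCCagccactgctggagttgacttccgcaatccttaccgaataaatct
The Acp5 window holds 2 GGAAA and 1 TCATGTG, and the Ctsk window holds 1 GGAAA. Acp5 start sites 1 and 2 hold 1 GGAAA each, and TCATGTG is in neither. Of the motifs, GGAAA occurs in 61.3% and TCATGTG in 3.77% of 32851 mouse promoter windows of this length, with the same chromosome left out and both strands searched. GAGGAA, a core bound by PU.1 that shares its last 4 letters with GGAAA, occurs in 28.3% of windows, with 2 matches in Ctsk and none in the Acp5 windows. The AP-1 motif TGANTCA (7.81% of windows) and the E-box CACGTG (7.15%) were absent from all 8 windows. A match describes these letters and not a bound site.

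A small set of cycling cells in the macrophage annotation carried the same genes. Among the 1297 Highly proliferative M2 cells, 36 had both Acp5 and Ctsk above 1000 CPM, with 8 and 7 in vehicle mice 1 and 2 and 10 and 11 in digoxin mice 1 and 2. The choice fixes that Acp5 and Ctsk are high in them and so hold much of those genes' UMIs, and the other genes were not used. Their mean levels were 4927 CPM for Acp5, 3336 for Ctsk, 1984 for Mmp9, 732 for Atp6v0d2 and 426 for Nfatc1. The other 1261 cells were at 171, 16.1, 13.0, 26.0 and 64.8 CPM for the same genes. All 36 and 1258 of the other 1261 had a UMI of the proliferation genes Mki67 or Top2a, and Mki67 was at 668 CPM in them, 836 in the other 1261 cells and 15.7 in the 243 Osteoclasts above the same level. C1qa, a macrophage complement gene, was at 51.2 CPM in the 36 cells and 3357 in the rest of the population. The macrophage genes Csf1r and Cd68 were at 385 and 424 against 459 and 375, and Slc9b2, described next, was at 478 against 16.1. Scrublet marked 0 of the 36 as doublets, and their median depth was 38813 UMIs against 26984. Oscar and Calcr had no UMI in any of the 1297 cells.

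These 36 cells, 2.78% of their population, held 86.5% of its Ctsk UMIs, 81.1% of its Mmp9, 50.3% of its Ocstamp, 48.5% of its Atp6v0d2 and 48.0% of its Acp5. They held 19.1% of its Nfatc1, 9.40% of its Dcstamp and 6.87% of its Tnfrsf11a. Without them the level of Acp5 in Highly proliferative M2 cells, averaged over the 4 mice, was 176 mean CPM in place of 311, and that of Ctsk was 16.7 in place of 110. The same level of both genes was passed by 28 of 18963 malignant cells, 19 of them in vehicle mouse 2, and Scrublet marked 22 of the 28. It was passed by 1 cell each of M1, M2 and Neutrophil, and by none in the other populations.

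**Figure D3:**
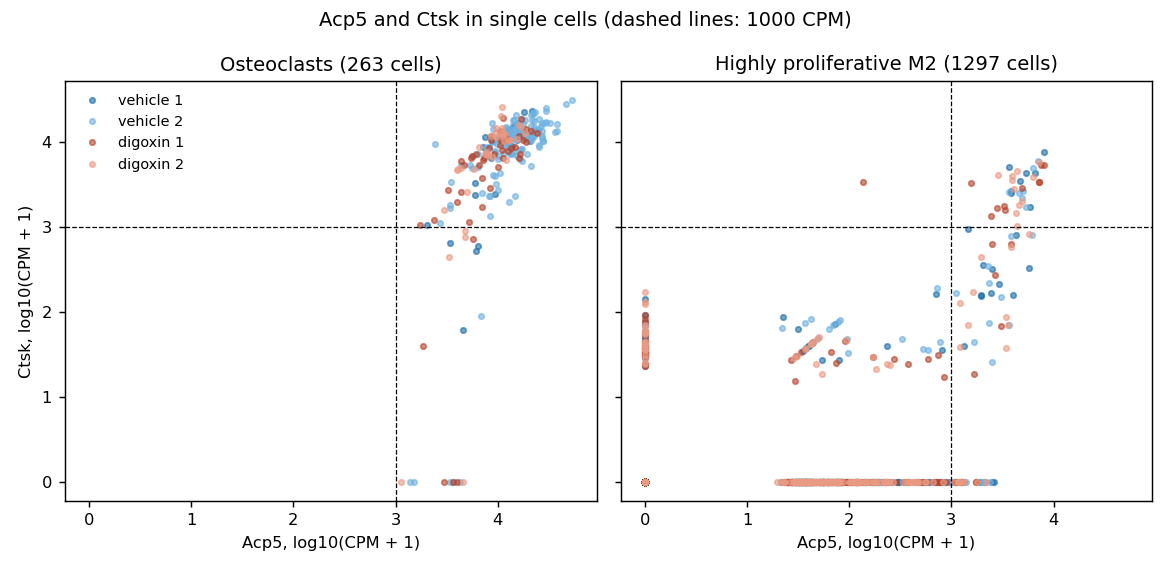
Acp5 against Ctsk in single cells, each on a log10(CPM + 1) axis, for 263 Osteoclasts (left) and 1297 Highly proliferative M2 cells (right), coloured by mouse. Dashed lines mark 1000 CPM; 243 Osteoclasts and 36 Highly proliferative M2 cells, from all 4 mice, lie above both lines.

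Genes with the most similar pattern over the 14 populations were sought among 9841 others, by Pearson's r with the mean of the 10 genes on the log2(mean CPM + 1) scale. The 10 nearest were AC154509.1 and Cyp2s1 (r = 0.95 for both), Ppp1r1a (0.94), Nyap2 and St18 (0.92 for both), Gm43569 (0.91), Atp6v1b2 (0.89), Slc9b2 and Rufy4 (0.88 for both) and Slc4a2 (0.87). Slc9b2, a sodium-proton exchanger gene, was at 865 mean CPM in Osteoclasts and at most 29.5 in any other population. Atp6v1b2, a subunit of the proton pump, was at 928 against at most 162. Slc4a2, a chloride-bicarbonate exchanger, was at 217 against at most 39.9. The points share libraries and r was set largely by the Osteoclasts point for genes such as Nyap2 (42.1 mean CPM against at most 0.340).

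To ask whether digoxin changed the program inside Osteoclasts, the 10 genes were compared between groups with limma on all 7803 genes that passed the filter, of which 0.0128% were called (Benjamini-Hochberg adjusted p under 0.05). None of the 10 was called by limma or by edgeR, 2 had an unadjusted limma p under 0.05 (against 6.38% of all genes tested), and DESeq2 called 1, Ctsk, among 6 genes in all. Acp5 had a log2 difference, digoxin minus vehicle, of -0.53 (SE 0.16, adjusted p = 0.781), which is 0.694 times the vehicle level. Its means were 13525 ± 3459 with vehicle and 9237 ± 425 with digoxin (mean CPM, SD, n = 2 each). Ctsk had a difference of -0.34 (SE 0.15, adjusted p = 0.781), from 10267 ± 1332 to 8110 ± 1366 (mean CPM, SD, n = 2 each). In DESeq2 on summed UMIs Ctsk was at -0.41 with an adjusted p of 0.018, and over all alternatives its adjusted p ran from 0.018 to 0.994. Without vehicle mouse 2 the differences were -0.26 for Acp5 and -0.21 for Ctsk, without vehicle mouse 1 Acp5 was at -0.79, and without digoxin mouse 1 or 2 Ctsk was at -0.17 or -0.52.

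The groups overlapped for the other 8 members. Mmp9 was at -0.39 (SE 0.23), and at 0.03 without vehicle mouse 2. Calcr was at -0.73 (SE 0.39) and Oscar at -0.46 (SE 0.59) on the log2 scale. Without vehicle mouse 1 or 2 Calcr was at -1.17 or -0.28 and Oscar at -1.34 or 0.41. Ocstamp, Tnfrsf11a, Nfatc1, Atp6v0d2 and Dcstamp lay between 0.03 and 0.13 (adjusted p of 0.897 to 0.984, limma). Both digoxin mice were below both vehicle mice for 2 of the 10 genes, Acp5 and Ctsk, and above them for 0, where 15.8% and 21.6% of all tested genes did so. The median of the 10 differences was -0.16, against 0.03 over all genes tested. Of the 10 differences 5 were below 0, 3 without vehicle mouse 2, and 9 without vehicle mouse 1 or digoxin mouse 2. On summed UMIs edgeR put Dcstamp, Atp6v0d2, Nfatc1 and Tnfrsf11a below 0 as well, and DESeq2 put Atp6v0d2, Nfatc1 and Tnfrsf11a there. Median mitochondrial shares of Osteoclasts were 9.48% and 10.8% with vehicle and 7.86% and 7.64% with digoxin, and their part in the differences was not tested.

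**Figure D4:**
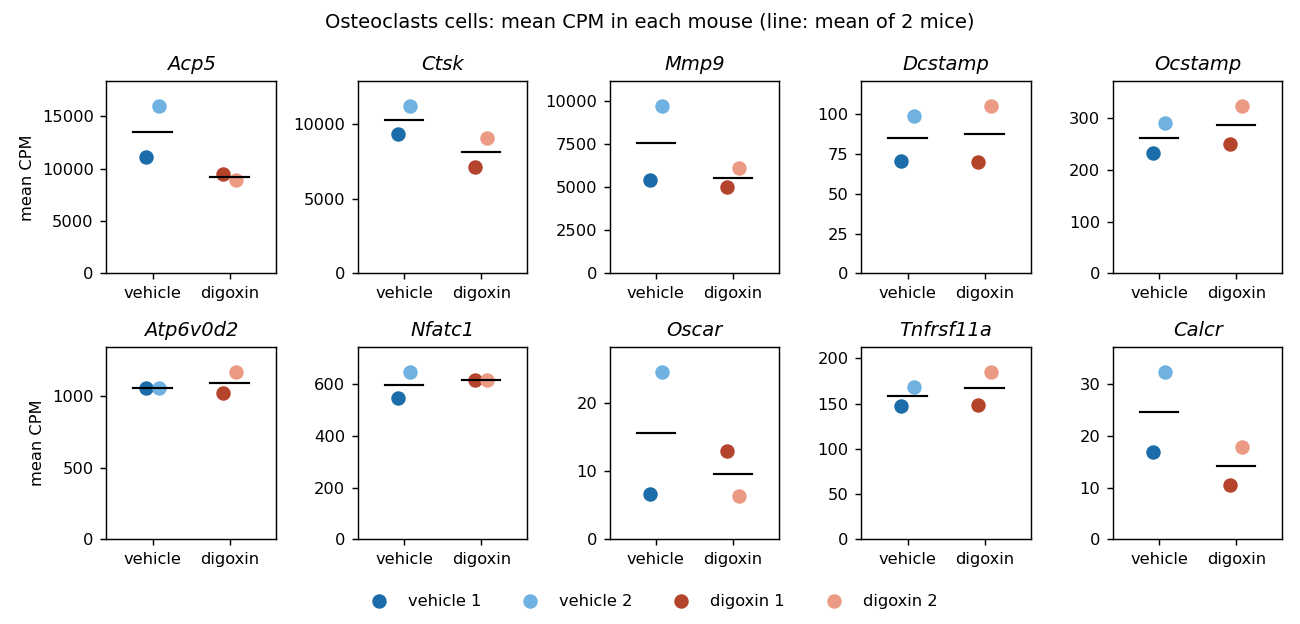
Mean CPM of each gene in Osteoclasts, 1 panel per gene with its own axis from 0; points are mice and lines are means of 2 mice. Both digoxin points lie below both vehicle points for Acp5 and Ctsk, and the groups overlap for the other 8 genes.

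In Macrophage cells limma called 0 of the 8 members that passed the filter and 0% of all 13734 genes, and edgeR and DESeq2 called none of the members. Oscar and Calcr, with 4 and 1 UMIs in all 10363 cells, did not pass. Dcstamp was the only member with an unadjusted p under 0.05, as 4.04% of genes had. It was at 17.4 and 19.1 mean CPM in vehicle mice 1 and 2 and at 14.3 and 9.61 in digoxin mice 1 and 2, a log2 difference of -0.60 (SE 0.20, adjusted p = 1.00). Both digoxin mice were below both vehicle mice for Dcstamp, Atp6v0d2 and Nfatc1, where 17.3% of all tested genes did so. They were above them for Mmp9, where 13.6% did so, with 10.9 and 14.0 mean CPM in vehicle mice and 14.2 and 16.3 in digoxin mice. The differences of these 3 genes were -0.27 (Atp6v0d2), -0.16 (Nfatc1) and 0.27 (Mmp9) on the log2 scale. Leaving out 1 mouse at a time took them to -0.41 to -0.12, -0.23 to -0.081 and 0.11 to 0.44, with Mmp9 lowest without vehicle mouse 1, and took Dcstamp to -0.86 to -0.33.

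By Sub-cluster, Dcstamp differed most in M1 macrophages, with 29.9 and 58.2 mean CPM in vehicle mice 1 and 2 and 25.3 and 16.9 in digoxin mice 1 and 2. Both digoxin mice were below both vehicle mice, as for 24.0% of the genes tested there, and the log2 difference was -0.98 (SE 0.31, adjusted p = 0.540, limma). It passed the threshold in limma only when vehicle mouse 1 (-1.45, adjusted p = 0.049) or digoxin mouse 1 (-1.25, adjusted p = 0.034) was left out. Without vehicle mouse 2 it was -0.51. Mmp9 was the only member above in M1, where 15.3% of genes were, with 4.86 and 5.54 mean CPM against 6.17 and 6.92 with digoxin. In Highly proliferative M2 cells both digoxin mice were below both vehicle mice for Dcstamp (-0.38, SE 0.19) and Nfatc1 (-0.29, SE 0.14), as for 12.6% of genes. They were above for Mmp9 (0.42, SE 0.19) and Tnfrsf11a (0.14, SE 0.11), as for 17.4%. Mmp9 was at 0.12 without vehicle mouse 1 and at 0.72 without vehicle mouse 2, and 36 cells held 81.1% of its UMIs there. Nfatc1 was at -0.11 without vehicle mouse 2, and Dcstamp was at -0.22 without vehicle mouse 1. In M2 cells 0 members were below and 0 above, against 11.7% and 15.0% of genes, and Dcstamp was at -0.04 (SE 0.24). Limma called 0% of all genes and 0 of 8 members in each Sub-cluster, with 1, 0 and 0 members at an unadjusted p under 0.05 in M1, M2 and Highly proliferative M2 (against 7.73%, 2.28% and 3.94% of genes), and edgeR and DESeq2 called 0 members. The digoxin difference of Dcstamp in Osteoclasts, 0.03, was compared with that in Macrophage cells within mice and differed by 0.63 on the log2 scale (SE 0.38, adjusted p = 0.921, limma). In that test 0% of 7788 genes and 0 of 8 members were called, and 0 members had an unadjusted p under 0.05, against 5.14% of genes. No other tool was run on it.

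**Figure D5:**
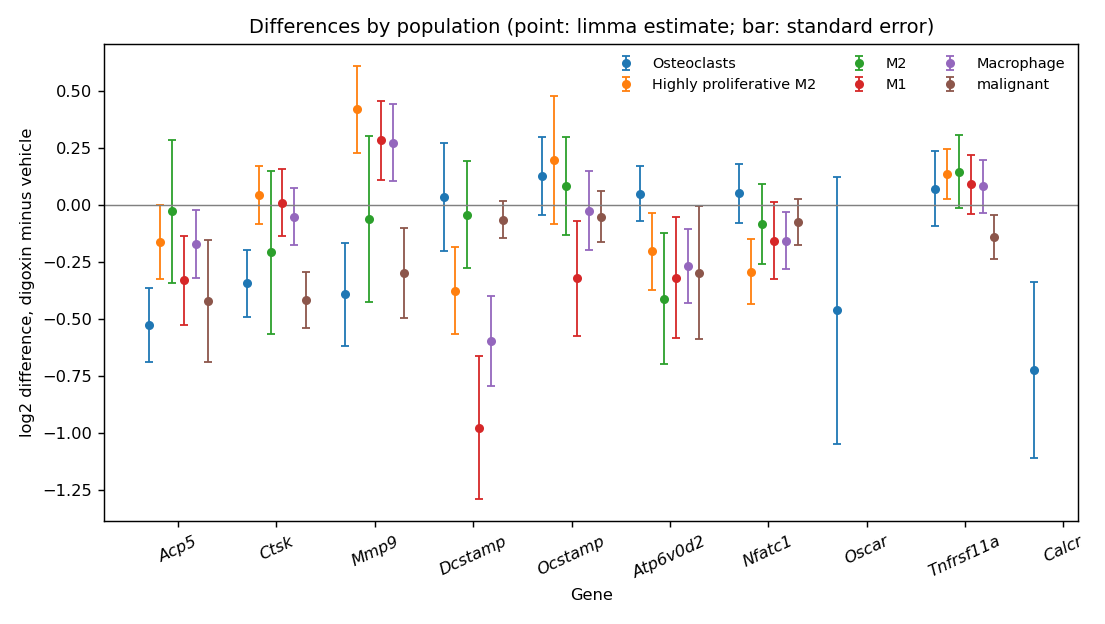
Log2 difference, digoxin minus vehicle, of each gene (horizontal axis) in 6 populations, as limma estimates with standard errors from 2 mice per group. Dcstamp in M1 is the lowest at -0.98; genes that did not pass the filter in a population have no point, and none of the differences passed the adjusted threshold.

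In malignant cells Ctsk was at 68.4 and 86.7 mean CPM in vehicle mice 1 and 2 and at 58.4 and 56.3 in digoxin mice 1 and 2, a log2 difference of -0.42 (SE 0.12, adjusted p = 1.00, limma) and of -0.25 without vehicle mouse 2. Both digoxin mice were below both vehicle mice, as for 16.5% of the 17138 genes tested there. Tnfrsf11a did so too, and 0 members were above, against 12.8% of genes. All 8 members tested in malignant cells had estimates below 0 (52.8% of all genes did), from -0.42 to -0.05, and 4 of 8 without vehicle mouse 2, where Acp5 was at -0.028. Limma called none of them and 0% of all genes; 1 member had an unadjusted p under 0.05, against 3.41% of genes, and neither edgeR nor DESeq2 called a member. Malignant Acp5 was at 20.5, 36.2, 22.5 and 18.0 mean CPM in vehicle mice 1 and 2 and digoxin mice 1 and 2. Without the 28 malignant cells chosen for high Acp5 and Ctsk, 19 of them in vehicle mouse 2, the rest were at 18.6, 21.5, 17.8 and 15.4 CPM. The choice fixes that leaving them out lowers Acp5, and their part in the difference was not tested.

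Over all non-malignant cells together, Acp5, Ctsk and Mmp9 were lower with digoxin by log2 differences of -1.07, -1.03 and -1.02 (adjusted p = 0.975 for each, limma, which called 0 of 10 members and 0% of all genes; 1 member had an unadjusted p under 0.05, against 3.9% of genes, and edgeR and DESeq2 called none). Such a pool combines the number of Osteoclasts with the RNA in each, which are given separately above. Without vehicle mouse 2, whose Osteoclasts made up 5.04% of cells, the differences were 0.12, 0.17 and 0.49. Without vehicle mouse 1 they were -2.26, -2.22 and -2.52, and 4 members (Acp5, Ctsk, Mmp9 and Atp6v0d2) passed the threshold. In that pool only Dcstamp had digoxin values that were all lower than the vehicle values, as 20.6% of genes had, and 0 members had all of them higher, against 12.4%.

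In the 5 other populations with 20 or more cells in every mouse, limma, edgeR and DESeq2 called none of the members tested. In T cells 6 members were tested and 0 had groups that did not overlap (0% of genes called by limma, 19.0% below and 14.3% above). In NK cells 3 were tested (0.0765% of genes called). Ctsk was above in both digoxin NK samples, as 19.1% of genes were, and 0 members were below, against 16.9%. In Epithelial cells 5 were tested (0.467% of genes called), with Mmp9 and Tnfrsf11a below, as 16.3% of genes were, and Nfatc1 above, as 17.8% were. In Fibroblast cells 4 were tested (0% of genes called), with Acp5 below (-0.70, SE 0.31), as 19.4% of genes were, and Nfatc1 above (0.78, SE 0.31), as 10.1% were. In Microglia Nfatc1 alone was tested and was above (0.79, SE 0.38), as 16.7% of genes were, against 16.2% below (0% called). It was at 26.1 and 64.1 mean CPM in vehicle mice 1 and 2 and at 68.1 and 75.4 in digoxin mice 1 and 2. Without vehicle mouse 1 the difference was 0.16. In Fibroblast cells Acp5 was at -0.44 without vehicle mouse 1 and Nfatc1 at 0.46 without digoxin mouse 1. The members with an unadjusted limma p under 0.05 numbered 0 in T cells, NK cells and Microglia and 1 each in Epithelial (Mmp9) and Fibroblast (Nfatc1) cells. Over all genes the shares were 4.28%, 6.28%, 4.78%, 5.77% and 2.97% in the same order. Some of these differences rested on few UMIs. Mmp9 in Epithelial cells had 7 and 12 in vehicle mice 1 and 2 and 1 and 11 in digoxin mice 1 and 2. Ctsk in NK cells had 4, 7, 13 and 16 in the same mice.

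The rest of the pathway was read from 4 lists. Of the RANK and co-stimulatory signalling list 18 of 20 genes were tested in Osteoclasts, and limma called 0 in either direction (1 with an unadjusted p under 0.05, against 6.38% of all genes, and 0 by edgeR and DESeq2). The median difference was -0.13, against 0.03 over all genes. The genes of the list with the highest mean CPM, by which they were chosen for naming, were Tyrobp, the adaptor DAP12, at 2987 ± 347 mean CPM, Fos, which acts with NFATc1, at 1360 ± 304, and Fcer1g, an adaptor of the same kind, at 1149 ± 43.2 (SD over 4 mice for each). In Macrophage cells Tyrobp and Fcer1g were at 1994 mean CPM each and Fos at 2028. The list gene with the unadjusted call was Nfkb1, at 0.57 (SE 0.18, adjusted p = 0.781), named after its value was seen.

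Of the acid secretion, attachment and cytoskeleton list all 25 genes were tested in Osteoclasts, limma called 0 (3 with an unadjusted p under 0.05, against 6.38% of all genes), edgeR called 0 and DESeq2 called 1, and the median was -0.10 with 18 of 25 below 0, against 45.5% of all genes. The proton pump subunits Atp6v0b, Atp6v0e and Atp6v1g1 were chosen in the same way and were at 1489 ± 93.2, 1434 ± 112 and 1186 ± 169 mean CPM (SD over 4 mice), against 510, 385 and 478 in Macrophage cells. The 3 unadjusted calls, named after their values were seen, were Snx10, a sorting protein needed for bone resorption, at -0.48 (SE 0.14), the pump accessory gene Atp6ap1 at -0.39 (SE 0.15) and Atp6v1g1 at -0.34 (SE 0.12), with an adjusted p of 0.781 for each in limma. Snx10 was the gene DESeq2 called, at -0.55.

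Of the 7 cell fusion genes limma called 0 in Osteoclasts (0 with an unadjusted p under 0.05, and 0 by edgeR and DESeq2), with a median of -0.03. The membrane genes Cd9, Sirpa and Itgb1 were at 337 ± 25, 291 ± 24.9 and 251 ± 23.9 mean CPM (SD over 4 mice). Of the 6 repressors of osteoclast genes 4 were tested in Osteoclasts and limma called 0 (0 with an unadjusted p under 0.05, and 0 by edgeR and DESeq2), with a median of 0.17. Id2, an inhibitor of helix-loop-helix transcription factors, was at 98.1 ± 32.3 mean CPM in Osteoclasts and 349 ± 44.5 in Macrophage cells (SD over 4 mice). Cyld, a deubiquitinase, was at 45.6 ± 3.07 and 36.3 ± 3.27 in the same order (SD over 4 mice).

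In Macrophage cells the medians of the 4 lists were 0.01, -0.0022, 0.08 and -0.05 in the same order, against -0.01 over all genes. Limma and edgeR called 0 genes of any list there, and 1 (Jdp2), 0, 2 (Adam8 and Cd44) and 1 (Bcl6) had an unadjusted limma p under 0.05, against 4.04% of all genes. Adam8 and Cd44 passed the adjusted threshold without vehicle mouse 1. These 4 genes were named after their values were seen. DESeq2 called 1, Jdp2, a transcription factor gene of the osteoclast program, which limma put at 0.73 (SE 0.17, adjusted p = 1.00) and DESeq2 at 0.70.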

How the data were processed

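Single cells of 4 tumors were captured with the 10x 3′ version 3 kit, per the labels' protocols. The deposited expression values are the natural log of 1 plus UMIs per 10000 UMIs of a cell, although the tables are called counts. The deposited UMI count per cell is the authors' own total. Multiplying back gave whole UMIs for 100% of values (tolerance 0.01), summing to that total in all 18963 malignant and 12648 non-malignant cells. Cell Ranger 3.0.2, Seurat 3.0.2 and the build mm10 are named in the submitters' processing notes without their roles. The cell filter and the strand setting are not given in the sources used here. Clusters and Sub-clusters are the authors' annotation as deposited. The malignant table names no Sub-clusters, so malignant cells were treated as 1 population. A further allele of the genotype and the values of 1 gene of a pathway list are not reported here.

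CPM was averaged over the cells of a mouse and tested as log2(mean CPM + 1) with limma 3.58.1 (trend), in R 4.3.3, after edgeR's filterByExpr on summed UMIs. Log2 differences are therefore on the log2(value + pseudocount) scale and understate the change of low genes. P-values were adjusted over all genes by Benjamini-Hochberg with a threshold of 0.05. Limma rather than a count model was the main test because the tables hold log-normalized values. Each group held 2 mice. Populations needed 20 cells in every mouse to be tested. Tests were checked on simulated data. Alternatives were edgeR 4.0.16 and DESeq2 1.42.0 on summed UMIs, a pseudocount of 10, no filter, the replicate block, cells without doublets and each mouse left out. Doublets were marked with Scrublet in scanpy 1.11.5 (1381 of 31611 cells, 4.37%) and kept in the main results.

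The rule for names took all members in every population, the 3 genes of highest mean CPM in Osteoclasts from each pathway list and the 10 genes most similar in pattern. Outside Osteoclasts the text gives members by counts and names those whose groups did not overlap. The members and lists were chosen with earlier results of these data known. The level of 1000 CPM in both Acp5 and Ctsk was chosen after seeing the data. Median depth per mouse was 16070 to 17049 UMIs in Macrophage cells and 46799 to 57658 in malignant cells. Intervals cover counting error only.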

Additional observations from a re-analysis of the deposited data

How the results depend on the processing

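With 2 mice per group, counts of called genes moved with the tool and with single mice. Of the values recomputed, 480 were scored as the same, 64 moved, 23 reversed and 6 single-gene differences passed the threshold only under an alternative. The cause was not tested. For a gene, the same means an unchanged direction and side of the threshold. For counts of called genes it means equal or close, and for shares and levels a like direction or a change within the SD. Genes were scored for all members in Osteoclasts, for some members in other populations, and for none in T, NK and Epithelial cells. Also left out are Atp6v0d2 in non-malignant cells and the pathway list genes, whose calls under alternatives stand beside their values. DESeq2 called 1 member in Osteoclasts (Ctsk), and it called 6 genes in all in Osteoclasts, 20 in Macrophage, 36 in M1, 9 in M2, 13 in Highly proliferative M2, 15 in Epithelial, 1 in Fibroblast, 1 in Microglia, 44 in malignant and 30 in non-malignant cells. EdgeR called 0 in Osteoclasts, 17 in NK and 0 in Epithelial cells. Limma itself called 1, 7 and 48 in Osteoclasts, NK and Epithelial cells and 0 in the others. Without doublets NK had 0, without the filter Epithelial had 6, and with a pseudocount of 10 Microglia had 2.

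Mice with the same number did not deviate together (correlation -0.079 in Osteoclasts, -0.040 in Macrophage, -0.155 in Microglia, -0.363 in malignant cells and at most 0.061 in the other populations). Whether they shared a batch or handling cannot be told from these values. With the replicate block, limma called 3 genes in Osteoclasts, 57 in T cells, 23 in NK, 85 in Epithelial and 2 in non-malignant cells, and changed no call of a member. With the numbers crossed, an alternative added after seeing the data, it called 40 genes in Microglia and 0 in malignant cells.

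Leaving out 1 mouse at a time gave 0 to 5 genes in Osteoclasts, 0 to 138 in Macrophage, 0 to 210 in M1, 0 to 51 in M2, 0 to 267 in Highly proliferative M2, 0 to 198 in T cells, 12 to 107 in NK, 12 to 344 in Epithelial, 0 to 414 in Fibroblast, 13 to 87 in Microglia, 0 to 15 in malignant and 0 to 69 in non-malignant cells. In each of these except Osteoclasts the highest count came without vehicle mouse 1, and a group left with 1 mouse is assumed to vary like the other. Members called ranged from 0 to 1 in M1 and from 0 to 4 in non-malignant cells. Log2 differences in Osteoclasts ranged from -0.81 to 0.026 for Mmp9, -0.26 to 0.33 for Dcstamp, -0.056 to 0.31 for Ocstamp, -0.048 to 0.15 for Atp6v0d2, -0.071 to 0.17 for Nfatc1, -1.34 to 0.41 for Oscar, -0.084 to 0.23 for Tnfrsf11a and -1.17 to -0.28 for Calcr. In M2 cells Dcstamp ranged from -0.27 to 0.18. In non-malignant cells they ranged from -2.26 to 0.12 for Acp5, -2.22 to 0.17 for Ctsk and -2.52 to 0.49 for Mmp9. The Osteoclasts share differed by -3.79 to 0.332 percentage points.

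On summed UMIs, which weight deep cells more, edgeR turned the sign of Dcstamp (-0.0025), Atp6v0d2 (-0.032), Nfatc1 (-0.050) and Tnfrsf11a (-0.12) in Osteoclasts, and DESeq2 that of Atp6v0d2 (-0.024), Nfatc1 (-0.045) and Tnfrsf11a (-0.11). The 28 Osteoclasts of vehicle mouse 1 limit the precision of low genes such as Oscar and Calcr.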
